A study of Mus musculus with 2 samples.

Results

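Fatty acids are built in the cytosol from acetyl-CoA, and 8 genes of that route were followed here in mouse liver RNA: Acly, Acss2 and Aacs, which supply acyl-CoA units, Acaca and Acacb, which make malonyl-CoA, Fasn, which assembles the chain, Me1, which supplies reducing power, and Pnpla3, a lipid droplet gene switched on together with the pathway in mouse liver. The 8 genes were taken by symbol from a table of 15526 genes, and all 8 had a row. The table holds 1 library from an AAOT pool and 1 library from a control pool. Each pool was mixed liver RNA of 3 female NOG-TKm30 mice, which were 22 weeks old when treated. The AAOT pool came from mice given 0.3% acetoaceto-o-toluidide (AAOT), an arylamide made of o-toluidine and acetoacetic acid, for 4 weeks, and the control pool from mice given 0% over the same time. All mice of both pools carry a cDNA of the herpes simplex virus thymidine kinase mutant clone 30, driven by the mouse transthyretin enhancer and promoter, which acts in hepatocytes. NOG mice lack mature lymphocytes and natural killer cells. The labels give the strain background as C57BL and the genotype as NOG-TKm30, and these statements were left as they stand. How the mice took up AAOT (by diet, water or otherwise) is not given.

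The pathway starts from citrate that leaves the mitochondria. ATP citrate lyase cleaves it to acetyl-CoA, acetyl-CoA carboxylase turns acetyl-CoA into malonyl-CoA at the committed step, and fatty acid synthase joins malonyl units with electrons from NADPH until palmitate is released. In liver the genes are known to be transcribed more after a carbohydrate meal, through the factors encoded by Srebf1 and Mlxipl, and less in fasting.

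The libraries held 16528533 reads on genes in the AAOT pool and 18801241 in the control pool, and the precursor ribosomal RNA Rn45s took 4.70% and 3.89% of them. Values are the authors' CPM, read counts relative to library size with a scaling factor between the libraries. A fold is the CPM of the AAOT pool divided by that of the control pool, and the range after it is its exact (Clopper-Pearson) 95% interval from the 2 read counts, which covers counting error only and treats reads as independent molecules. With 1 library per group there is no spread between mice or between library preparations and no test, so every fold below is that of these 2 pools. In bulk tissue, fewer cells of a type and less RNA per cell cannot be told apart. Both pools had the profile of liver. The 8 hepatocyte markers summed to 75757 CPM in the AAOT pool and 86634 CPM in the control pool, with Alb at 50830 and 57688 CPM. Of 8 adipocyte markers, Adipoq, Plin1, Lep, Retn and Cfd have no row in the table used here, Fabp4 had 20 reads in the AAOT pool and 27 in the control pool, and Lpl was at 18.3 CPM in each. Car3, which hepatocytes also express, was at 1641 and 1297 CPM. The sums of the 8 macrophage, 8 endothelial, 8 stellate cell and 8 cholangiocyte markers were 324, 478, 454 and 61.0 CPM in the AAOT pool and 302, 467, 520 and 52.9 CPM in the control pool. The cholangiocyte sum turned on Prom1, at 25.2 CPM in the AAOT pool and 7.75 CPM in the control pool, without which, a choice made after seeing the data, it was 35.8 and 45.1 CPM. The part of these markers in the values below was not tested.

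All 8 genes had higher CPM in the AAOT pool, with folds between 1.51 for Acaca and 4.59 for Pnpla3. Together they summed to 3205 CPM in the AAOT pool and 1465 CPM in the control pool, 2.19-fold (2.16 to 2.22), and Fasn made up 48.2% of that difference. Without Fasn the sums were 1741 and 841 CPM, 2.07-fold (2.03 to 2.11). A gene was counted as higher or lower when log2((AAOT + 1)/(control + 1)) was at least 1 or at most -1, which is 2-fold after an added constant of 1 CPM, among genes with a mean of at least 10 CPM over both pools. Of the 8 genes, 7 reached that floor and Pnpla3 did not. Of these 7, 5 reached the limit upward (Fasn, Acacb, Acly, Acss2 and Aacs), 0 reached it downward, and Acaca and Me1 were higher by less. Among all 7761 genes with that mean, 0.773% reached it upward and 0.425% downward. The median log2 ratio was 1.23 over the 7 genes and -0.02 over the 7761. The genes were chosen with earlier results of these libraries known, so this contrast with the rest is a description.

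**Figure D1:**
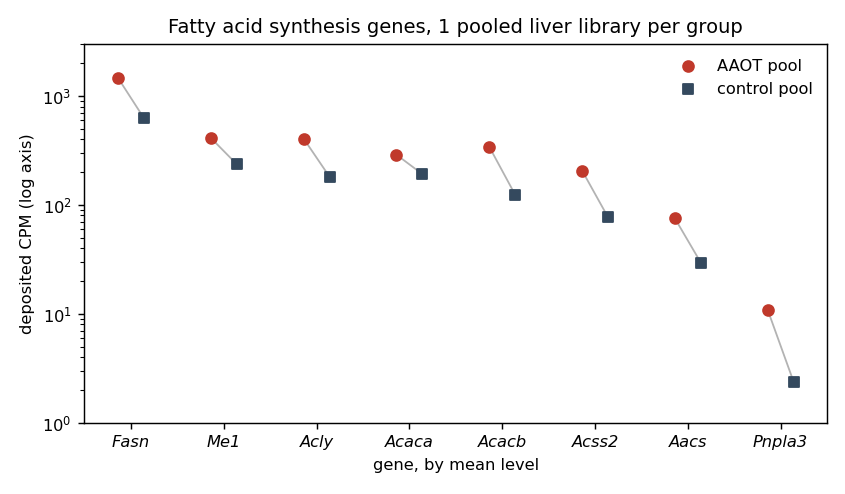
Deposited CPM, on a log axis, of the 8 genes in the AAOT pool (circles, left of each pair) and the control pool (squares, right), 1 pooled library each, so there is no error bar. Each circle lies above its square, from Fasn at 1463 and 624 CPM to Pnpla3 at 10.9 and 2.37 CPM.

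The 250 bases before the RefSeq start of 3 of the genes are shown because Fasn is the most abundant, Acly opens the citrate route and Pnpla3 had the highest fold, and because none of these 3 windows overlaps an annotated exon of its gene. Each is on its gene's own strand of GRCm38.p6, 5′ to 3′, and ends at the base before the start. Capitals mark matches to the CCAAT box, bound by NF-Y, and to the GC box GGGCGG, bound by Sp1 family factors, on either strand, so that they also appear as ATTGG and CCGCCC.
Fasn, chr11:120824548-120824797, minus strand: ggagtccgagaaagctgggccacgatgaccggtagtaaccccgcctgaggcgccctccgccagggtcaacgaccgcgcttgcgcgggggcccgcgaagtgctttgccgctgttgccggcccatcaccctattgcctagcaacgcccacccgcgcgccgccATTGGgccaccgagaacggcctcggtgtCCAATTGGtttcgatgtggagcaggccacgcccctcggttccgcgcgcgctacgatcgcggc
Acly, chr11:100528001-100528250, minus strand: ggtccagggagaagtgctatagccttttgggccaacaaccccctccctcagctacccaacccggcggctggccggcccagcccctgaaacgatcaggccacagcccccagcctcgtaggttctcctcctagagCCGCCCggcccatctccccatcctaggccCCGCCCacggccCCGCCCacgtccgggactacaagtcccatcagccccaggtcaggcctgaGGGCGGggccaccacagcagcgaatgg
Pnpla3, chr15:84167566-84167815, plus strand: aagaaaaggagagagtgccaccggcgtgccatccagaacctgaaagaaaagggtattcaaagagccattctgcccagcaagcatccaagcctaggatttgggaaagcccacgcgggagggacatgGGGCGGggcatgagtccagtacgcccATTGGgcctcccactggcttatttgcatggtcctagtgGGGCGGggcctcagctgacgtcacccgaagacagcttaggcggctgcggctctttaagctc

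The Fasn window holds 3 CCAAT matches, of which 2 overlap head to head between bases -62 and -55, counted back from the start, and no GC box. The Acly window holds 4 GC boxes, between bases -117 and -22, and no CCAAT match, while that of Pnpla3 holds 2 GC boxes and 1 CCAAT match at -99 to -95. Across the windows of all 8 genes, a CCAAT match was present for 5 (Fasn, Acacb, Acss2, Me1 and Pnpla3) and a GC box for 4 (Acly, Acss2, Me1 and Pnpla3). CCAAT is found in 34.7% and GGGCGG in 58.7% of the 7702 windows of genes above the floor, and in 33.8% and 32.7% of all 32851 windows. These shares and those below count windows, and the 7702 windows cover 5991 genes. A member, by contrast, was counted when any of its windows held a match. The core of the classical sterol regulatory element, a site of the factor encoded by Srebf1, was searched only as TCACNCCAC, and other forms of it were not searched. These letters were in none of the members' windows, in 1.18% of those of genes above the floor and in 1.05% of all. The E-box CACGTG was in none of the members' windows, in 8.84% of those above the floor and in 6.02% of all. A TATAAA motif was present for Acacb alone, at bases -34 to -29, in 6.66% of windows of genes above the floor and in 12.4% of all. The direct repeat bound by liver X receptors and the paired E-boxes of carbohydrate response elements, searched as exact letters, were in none of the members' windows and in 5 and 0 of all 32851. These are matches of letters and say nothing about binding. The windows of Acacb and Acaca lie far inside the gene as GENCODE M21 draws it, with starts 18983 and 65766 bases from its first base, so they do not cover all start sites of these 2 genes. Me1 has 2 windows, and its only CCAAT match is in the one whose start lies 8676 bases inside the gene, while its GC boxes are in the other.

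The 3 genes that feed acyl-CoA units into the pathway were all more than 2-fold higher in the AAOT pool. Positions here and below are those of GENCODE M21 on GRCm38. Acly, ATP citrate lyase (chromosome 11, 100476353 to 100528000), was at 406 CPM in the AAOT pool and 181 CPM in the control pool, 2.25-fold (2.15 to 2.34). Acss2, the cytosolic and nuclear acetyl-CoA synthetase that uses acetate (chromosome 2, 155517948 to 155585724), was at 207 and 77.0 CPM, 2.68-fold (2.52 to 2.86). Aacs, acetoacetyl-CoA synthetase, which activates acetoacetate in the cytosol for sterol and fatty acid synthesis (chromosome 5, 125475814 to 125517410), was at 75.2 and 29.5 CPM, 2.55-fold (2.31 to 2.83). The neighbours of Aacs were Bri3bp, 15444 bases away, 0.907-fold (0.835 to 0.985), and Slc15a4, 2078254 bases away, 1.32-fold (1.19 to 1.46). Acss2 thus took 33.7% of the summed reads of Acss2 and Acly in the AAOT pool (exact binomial interval 32.8 to 34.7%) and 29.9% in the control pool (28.6 to 31.2%). When CPM were first divided by transcript length, this share was 43.5% and 39.1%. The opposite strand of the Acss2 locus holds Gss, glutathione synthetase, which had a lower level in the AAOT pool, at 51.6 CPM against 68.4 CPM in the control pool, 0.755-fold (0.692 to 0.824). The sources do not say whether reads were counted by strand, so reads of the overlap cannot be told apart. Acaca is overlapped in the same way by Gm11437, with 104 reads in the AAOT pool and 59 in the control pool.

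The 2 acetyl-CoA carboxylases differed from each other. Acacb, which encodes the isoform on the outer face of mitochondria, whose malonyl-CoA restrains fatty acid entry by inhibiting carnitine palmitoyltransferase (chromosome 5, 114146535 to 114250761), was at 342 CPM in the AAOT pool and 124 CPM in the control pool, 2.77-fold (2.63 to 2.90). Acaca, which encodes the cytosolic isoform that supplies fatty acid synthase (chromosome 11, 84129672 to 84401651), was at 289 and 191 CPM, 1.51-fold (1.45 to 1.58), the lowest fold of the 8 genes. The fold of Acacb was 1.83 times that of Acaca, and their intervals do not overlap. Acacb made up 54.2% of the reads of the pair in the AAOT pool (53.2 to 55.1%) and 39.2% in the control pool (38.0 to 40.5%), or 56.1% and 41.1% when CPM were first divided by transcript length. Acacb was thus the higher of the pair per kilobase in the AAOT pool and the lower in the control pool. The value of Acaca is less certain: 47.4% of the 50-base stretches of its longest coding transcript occur in no other gene, and the rest are shared with the processed pseudogene Gm5182. Gm5182 has no row in the table used here. For Acacb this share was 100%.

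Fasn, the multifunctional synthase that carries out every step from malonyl-CoA to palmitate (chromosome 11, 120805846 to 120824547), was at 1463 CPM in the AAOT pool, from 24489 reads, and 624 CPM in the control pool, from 11591 reads. That is 2.34-fold (2.29 to 2.40), the narrowest interval of the 8. Fasn took 45.7% of the reads of the 8 genes in the AAOT pool (45.2 to 46.1%) and 42.6% in the control pool (42.0 to 43.2%). When CPM were first divided by transcript length, its share was 27.3% and 25.2%. Its nearest neighbour with a mean above the floor did not share its ratio: Dus1l, 9443 bases away, was at 40.5 CPM in the AAOT pool and 45.6 CPM in the control pool, 0.887-fold (0.801 to 0.982). Ccdc57, 1982 bases away, had 25 and 20 reads.

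Me1, the cytosolic malic enzyme that yields NADPH while converting malate to pyruvate (chromosome 9, 86581371 to 86695953), was at 412 CPM in the AAOT pool and 236 CPM in the control pool, 1.75-fold (1.68 to 1.81). Of its 50-base stretches 73.5% are found in no other gene, and the rest occur in the processed pseudogenes Gm7049 and Gm7329, which have no row in the table used here. The other malic enzymes, which are mitochondrial, were barely expressed, with Me2, picked out by its values like Me3, at 32 reads in the AAOT pool and 48 in the control pool and Me3 at 4 and 7 reads. Rwdd2a, 6472 bases from Me1, had 25 reads in the AAOT pool and 8 in the control pool, 3.47-fold (1.52 to 8.89). Prss35, the neighbour on the other side, had 2 and 7 reads, and A330041J22Rik, which overlaps Me1, had 5 and 1.

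Pnpla3, which encodes a patatin-like acyl hydrolase of lipid droplets (chromosome 15, 84167837 to 84187236), had the highest fold and the lowest level of the 8. It was at 10.9 CPM in the AAOT pool, from 182 reads, and 2.37 CPM in the control pool, from 44 reads, 4.59-fold (3.29 to 6.53). Of its 50-base stretches 95.5% are found in no other gene. Its mean of 6.62 CPM lies under the floor. With a floor of 1 CPM it was counted as higher, as 0.746% of 12065 genes were, and its ratio ranked 16 among them. Of 1647 genes with a mean of 5 to 10 CPM, 0.911% reached 2-fold upward. Its neighbour Samm50, which codes for a mitochondrial outer membrane protein and starts 5005 bases beyond Pnpla3, was at 71.9 CPM in the AAOT pool and 72.3 CPM in the control pool.

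From the highest fold to the lowest the order was Pnpla3, Acacb, Acss2, Aacs, Fasn, Acly, Me1 and Acaca. Intervals overlapped in 6 of the 28 pairs of genes. Those of Acacb, Acss2 and Aacs overlapped one another, as did those of Aacs, Fasn and Acly. An overlap of intervals does not show that the folds of a pair are the same. The intervals of Pnpla3, Me1 and Acaca overlapped with none of the others. By log2 ratio Acacb ranked 24, Acss2 26, Aacs 29, Fasn 38, Acly 41, Me1 85 and Acaca 158 of the 7761 genes. At 1.5-fold in place of 2-fold all 7 genes above the floor were counted as higher, where 2.07% of the 7761 were.

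**Figure D2:**
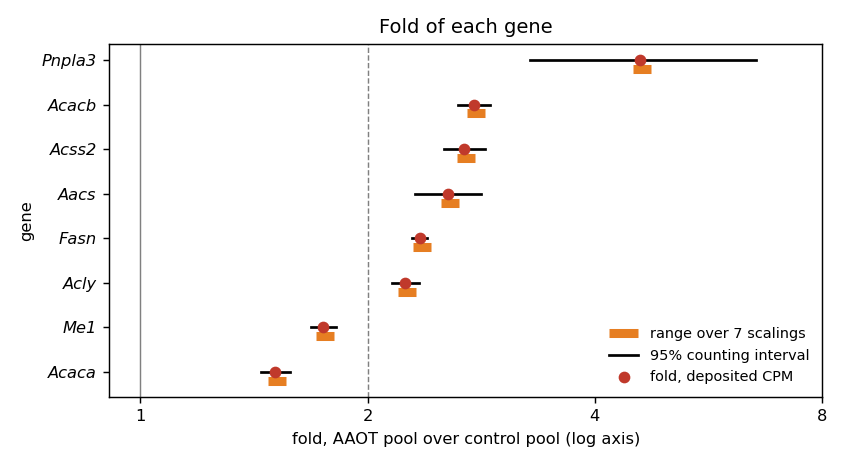
Fold of each gene, AAOT pool over control pool, on a log axis, with its 95% counting interval (black line) and, as an orange bar below it, the range of the fold over the deposited and 6 other scalings between the libraries. Me1 (1.75) and Acaca (1.51) lie left of the dashed line at 2, and Pnpla3 (4.59) has the widest interval.

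Per kilobase of the longest coding transcript, Fasn had the highest level of the 8 in the AAOT pool, at 146 CPM per kb, followed by Me1 at 125 and Acly at 91.7. In the control pool Me1 was highest, at 71.7 CPM per kb, followed by Fasn at 62.1 and Acly at 40.8. Acss2 was at 70.5 CPM per kb in the AAOT pool and 26.3 in the control pool. The carboxylases were lower, with Acacb at 38.9 and 14.1 CPM per kb and Acaca at 30.4 and 20.1. Aacs was at 23.2 CPM per kb in the AAOT pool and 9.09 in the control pool, and Pnpla3 was lowest in both pools, at 8.28 and 1.80. The order of levels therefore differed between the pools only in Fasn with Me1 and Acacb with Acaca, and each of these 2 exchanges involves a gene that shares stretches with pseudogenes. These levels depend on which transcripts the livers make, which the files do not give.

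**Figure D3:**
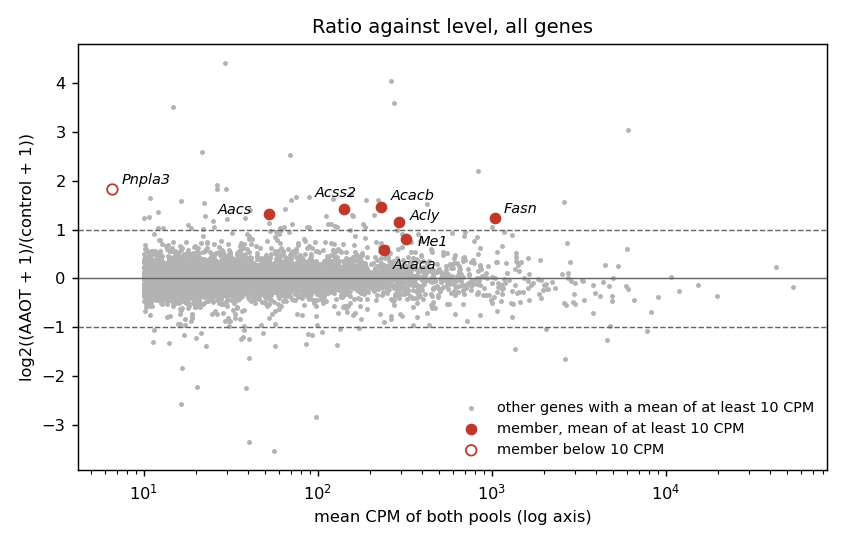
The log2 ratio, AAOT over control, after adding 1 CPM, against the mean CPM of both pools on a log axis, for the 7761 genes above the floor (grey), the 7 members among them (red) and Pnpla3 (open circle). The members lie between 0.59 and 1.82, above the bulk of genes, and the dashed lines mark 2-fold.

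The genes that surround the pathway did not move as one group. Among genes of acetyl-CoA and citrate supply, 0 of 10 above the floor reached 2-fold either way and the median log2 ratio was 0.14. The mitochondrial citrate exporter Slc25a1 was at 174 CPM in the AAOT pool and 144 CPM in the control pool, 1.21-fold (1.14 to 1.27). The pyruvate dehydrogenase subunits Dlat and Pdha1 were 1.33-fold (1.24 to 1.43) and 1.31-fold (1.22 to 1.40). Pyruvate carboxylase, Pcx, was 0.874-fold (0.853 to 0.897).

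In the NADPH list 0 of 9 genes passed 2-fold, with a median of 0.26. Those farthest from 0 were the pentose phosphate genes Tkt, at 172 CPM in the AAOT pool and 106 CPM in the control pool, 1.62-fold (1.53 to 1.72), and Pgd, 1.60-fold (1.42 to 1.79), with the folate enzyme Aldh1l1, at 1411 and 892 CPM, 1.58-fold (1.55 to 1.61). G6pdx, the first enzyme of the pentose phosphate pathway, was below the floor, with 141 reads in the AAOT pool and 78 in the control pool, 2.01-fold (1.51 to 2.68). It was picked out once its values were known.

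Of 13 genes that regulate or modify the carboxylases and the synthase, 1 reached 2-fold upward and 0 downward, and the median was -0.05. The higher one was Thrsp, a regulator of lipogenesis known as Spot 14, at 184 CPM in the AAOT pool and 59.6 CPM in the control pool, 3.10-fold (2.89 to 3.32). Its paralog Mid1ip1, which promotes polymerisation of acetyl-CoA carboxylase and was picked out once its values were known, was at 36.5 and 39.4 CPM, 0.925-fold (0.829 to 1.03). Malonyl-CoA decarboxylase, Mlycd, which removes malonyl-CoA, was 0.856-fold (0.803 to 0.914). The biotin ligase Hlcs, which activates both carboxylases, was 1.16-fold (1.04 to 1.30), and Aasdhppt, which attaches the phosphopantetheine arm to Fasn, was 0.823-fold (0.728 to 0.930). The other biotin-dependent carboxylases, 5 genes above the floor, had 0 past 2-fold and log2 ratios between -0.26 and 0.14.

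Mitochondria have a separate fatty acid synthesis pathway. Of its 7 genes 0 passed 2-fold, 6 had log2 ratios below 0, where 4157 of all 7761 genes did, and the median was -0.17. Its reductase Mecr was at 13.7 CPM in the AAOT pool and 17.1 CPM in the control pool, 0.799-fold (0.671 to 0.950).

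Downstream of palmitate, 1 of 17 elongation, desaturation and activation genes reached 2-fold upward and 0 downward, and the median was 0.08. This was Elovl6, the elongase that takes palmitate to stearate, at 240 CPM in the AAOT pool and 71.6 CPM in the control pool, 3.35-fold (3.15 to 3.57). The acyl-CoA synthetases went opposite ways, with Acsl5 1.32-fold (1.27 to 1.36) and the abundant Acsl1 at 1099 and 1570 CPM, 0.700-fold (0.687 to 0.713). In triglyceride synthesis and lipolysis 1 of 14 reached 2-fold upward and 0 downward, and the median was 0.11. Lpin1, a phosphatidate phosphatase, was at 285 CPM in the AAOT pool and 93.5 CPM in the control pool, 3.05-fold (2.88 to 3.22), and the acyltransferases Gpam and Agpat2 were 1.41-fold (1.36 to 1.48) and 0.743-fold (0.706 to 0.782). Pnpla2, the main triglyceride lipase of the family to which Pnpla3 belongs and also picked out by its values, was 1.10-fold (1.01 to 1.19), while the family members Pnpla6, Pnpla7 and Pnpla8, chosen likewise, had log2 ratios of 0.13, -0.36 and -0.10.

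The transcription factors and processing factors known to govern these genes had no common direction, with 0 of 16 past 2-fold and a median of 0.00441, which was -0.03 when libraries were scaled by the upper quartile. Srebf1 was at 364 CPM in the AAOT pool and 529 CPM in the control pool, 0.689-fold (0.667 to 0.711), opposite in direction to all 8 members. Mlxipl, which encodes the carbohydrate response factor ChREBP, was at 271 and 162 CPM, 1.67-fold (1.59 to 1.75). Insig1, which retains the SREBP precursors in the endoplasmic reticulum and is itself a target of them, was at 487 and 286 CPM, 1.70-fold (1.65 to 1.76). Values of a gene do not separate the isoforms of Srebf1 or Mlxipl.

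Of 6 ketone body genes above the floor 0 passed 2-fold, 5 had log2 ratios below 0, as 4157 of all 7761 genes did, and the median was -0.48. Acat1, the mitochondrial thiolase that forms acetoacetyl-CoA, was at 297 CPM in the AAOT pool and 577 CPM in the control pool, 0.515-fold (0.497 to 0.532). Bdh1, which interconverts acetoacetate and hydroxybutyrate, was 0.702-fold (0.677 to 0.726). The member above 0 was the cytosolic thiolase Acat2, at 81.6 and 53.5 CPM, 1.52-fold (1.40 to 1.66), which like Aacs supplies acetoacetyl-CoA to the cytosol.

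**Figure D4:**
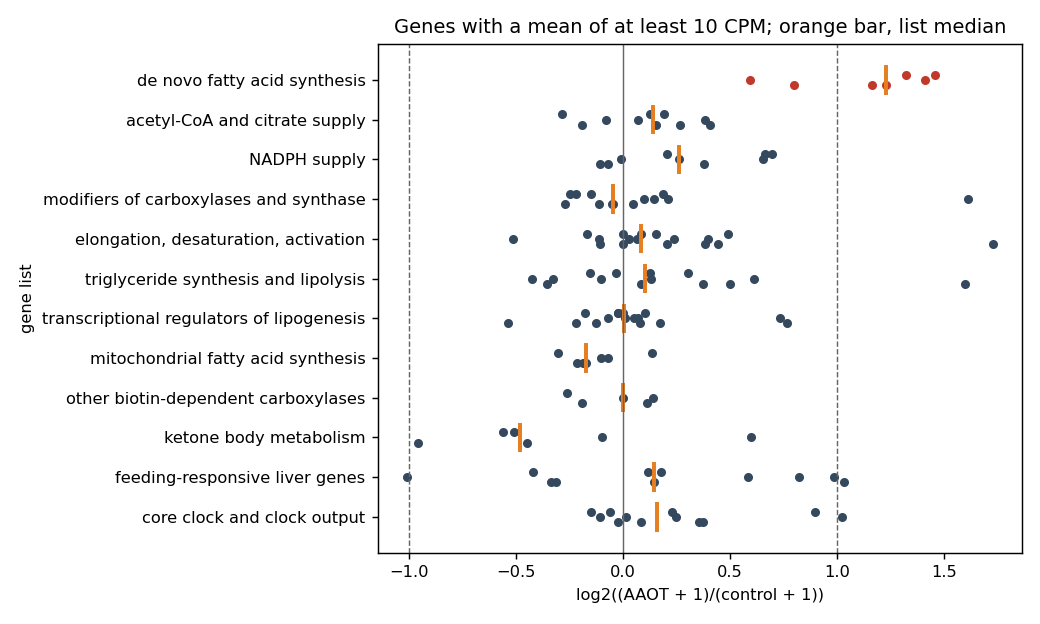
Log2 ratio, AAOT over control, after adding 1 CPM, 1 point per gene with a mean of at least 10 CPM, for the fatty acid synthesis genes (red, top row) and the 11 other lists (dark), with list medians in orange and dashed lines at 2-fold. The median is 1.23 in the top row and between -0.48 and 0.26 in the others.

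Some genes that follow feeding and some genes of the circadian clock differed between the pools, while others in both lists were close to 1-fold. Their part in the values of the 8 genes was not tested. Of 11 feeding-responsive genes above the floor 1 reached 2-fold upward and 1 downward, and the median was 0.15. Among all 7761 genes above the floor, 0.773% reached it upward and 0.425% downward. Of the 6 other scalings used below, 1 gave the deposited scale again and so repeats the call made on it. Igfbp1, which is raised in fasting, was at 115 CPM in the AAOT pool and 232 CPM in the control pool, 0.495-fold (0.469 to 0.523), and was within the limit under 4 of 6 other scalings and with an added constant of 5 CPM. The glycolytic gene Pklr was 1.77-fold (1.69 to 1.87) and the glucose-responsive Txnip 1.99-fold (1.88 to 2.11), a fold that was counted as higher under 4 of 6 other scalings. Ppargc1a, a fasting-induced coactivator, was at 17.8 and 8.19 CPM, 2.18-fold (1.78 to 2.66), and was likewise within the limit with that constant. Pck1 and G6pc, picked out once their values were known, were 1.08-fold (1.07 to 1.10) and 0.805-fold (0.786 to 0.824). Among 12 clock genes 1 reached 2-fold upward and 0 downward, and the median was 0.16. Of these, 8 had log2 ratios above 0 and 4 below. Per3 was 2.12-fold (1.80 to 2.50), within the limit under 1 of 6 other scalings and with an added constant of 5 CPM. Per1 was 1.90-fold (1.70 to 2.12), Per2 1.32-fold (1.10 to 1.59), Dbp 1.29-fold (1.16 to 1.43) and Tef 1.19-fold (1.11 to 1.27). Arntl, Clock, Cry1 and Nr1d1, likewise picked out, had log2 ratios between -0.11 and 0.01. When the mice last ate and at what hour livers were taken is not given.

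Outside these lists, the 5 genes with a mean of at least 100 CPM whose log2 ratio lay nearest to the median of the 7 members were Gstt3, Gstm4, Ces1g, Ugdh and Gm4794, among 1525 genes searched. Their log2 ratios were between 1.12 and 1.30, and the likeness is one of a single ratio between 2 libraries.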

How the data were processed

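Liver RNA of 1 AAOT pool and 1 control pool was sequenced after column purification, ribosomal RNA depletion and directional library preparation (200 ng RNA each), per the labels' protocols. Bowtie2, RSEM, edgeR, Trimmomatic 0.38 and the build mm10 are named in the submitters' processing notes, without roles. No annotation is named there. The authors deposited CPM per gene symbol. The deposited CPM were whole multiples of 1 step per library for 100% of values (relative tolerance 1e-06). This gave whole counts, which are called reads here. Whether they are observed or rounded estimated counts is not given, and the intervals leave out any error in assigning reads to genes. Column totals of 987690 in the AAOT pool and 1012463 in the control pool show a scaling factor. A trimmed mean of M-values computed on the reads gave the same scale.

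Ratios, floor, 2-fold limit and exact Clopper-Pearson intervals are as given in the text. No count model was run, because each group has 1 library. The code for calls and intervals was run on simulated Poisson read counts, which hold counting error only and no spread between mice or preparations. Such counts follow the model of the intervals, so the run checks the code and not the calls between these pools. The 8 members, 11 pathway lists and 6 marker lists were chosen with earlier results of these data known. The text names the members, up to 5 genes per pathway list farthest from 0, Srebf1, Mlxipl, markers, the 5 genes most like the members, and chromosomal neighbours or relatives of members and others that were chosen after their values were seen. Hsd17b8 was found as H2-Ke6. Positions, lengths and the share of 50-base stretches in no other gene are from GENCODE M21 (GRCm38), and promoter windows from RefSeq GRCm38.p6, which matched 8 of 8 members. Alternatives were 6 scalings, added constants of 0.1 and 5 CPM, floors of 1 and 50 CPM and none, and limits of 1.5-fold and 4-fold. Tools were scipy 1.17.1 and numpy 2.4.6 for the intervals, pandas 2.3.3 for the tables and matplotlib 3.10.9 for the plots, in Python 3.11.15.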

Additional observations from a re-analysis of the deposited data

How the results depend on the processing

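No member was lower, and 5 of 7 were at least 2-fold higher, under each of the 6 other scalings. Each of these multiplies all folds by 1 factor between 0.979 and 1.03, too small to change any member's call or direction. The recomputed trimmed mean among them repeats the deposited scale. The count of members at least 2-fold higher was also 5 of 7 with either added constant and when the floor was 50 CPM. It was 6 of 8 when the floor was 1 CPM or absent, where Pnpla3 enters, 7 of 7 at 1.5-fold, and 0 of 7 at 4-fold. The median log2 ratio of the members was 1.26 with plain library totals, 1.28 without ribosomal RNA rows, 1.20 with upper quartile scaling, and 1.28 with a floor of 1 CPM or none, against 1.23 as reported. The fold of Fasn was 2.40 with plain totals and 2.42 without ribosomal RNA rows, above its counting interval, and the other 46 of 48 folds stayed within theirs. The median of the triglyceride list was -0.0090 with a floor of 50 CPM, where fewer genes enter. Of 120 list medians under alternatives 8 changed sign, in 4 lists whose reported medians were within 0.11 of 0. The mitochondrial list has no gene above 50 CPM and gives no value there. Over all genes, 60 were counted as higher and 33 as lower, which became 161 and 108 at 1.5-fold, 8 and 6 at 4-fold, 37 and 15 at a 50 CPM floor, 90 and 55 at 1 CPM, and 94 and 60 at none. No paired analysis was possible because each group has 1 library. Depth limits Pnpla3 most, with 44 reads in the control pool.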
